A study of Mus musculus with 24 samples.

Results

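RNA sequencing recorded the transcripts of 42 lysosomal genes in 2 stable lines made from RAW 264.7 mouse macrophages, before and after lipopolysaccharide (LPS), a bacterial cell wall component that Toll-like receptor 4 senses. The genes are a named list of lysosomal hydrolases, lysosomal membrane proteins, subunits of the lysosomal proton pump, 2 transcription factors and the small GTPase Rab7b. All 42 were found among the 25160 genes of the count table, and all 42 were among the 12198 genes that passed the filter on low counts. Where a gene had several transcripts, the one with the highest mean count stood for it.

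The tested line carried a doxycycline-inducible Nur77 construct, Nur77 being the orphan nuclear receptor encoded by Nr4a1, and the control line carried an inducible GFP construct. Each construct was present in 1 stable line. Both lines received 50 ng/ml doxycycline for 18 h and then 500 ng/ml LPS for 0, 1 or 5 h, so the control cells had the same inducer. The groups were Nur77 line at 0, 1 and 5 h and GFP line at 0, 1 and 5 h, with 4 libraries each and 24 libraries in all. The labels do not state separate cultures for the replicates, so a p-value here reflects only how much these libraries vary, possibly for technical reasons. In bulk RNA, fewer cells that express a gene and less of its RNA per cell cannot be told apart.

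Lysosomes are acidic organelles in which proteases, glycosidases, sulfatases and lipases break down material taken up by phagocytosis, endocytosis and autophagy. A vacuolar proton pump, the V-ATPase, keeps the lumen acidic, and heavily glycosylated membrane proteins such as LAMP1 line the membrane. Many lysosomal genes share a promoter element, the CLEAR motif, that is bound by TFEB, TFE3 and MITF, which are kept in the cytoplasm when mTORC1 is active and enter the nucleus under starvation or lysosomal stress. In macrophages these organelles digest microbes and cell debris and trim antigens.

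Total counts were 8134143 to 29275847 per library. Nr4a1 itself was at 3.27 ± 0.403 CPM (counts scaled to library size by TMM) in the Nur77 line and 3.03 ± 0.390 CPM in the GFP line at 0 h (SD, n = 4), which does not check the construct, because its sequence is not given in the sources used here. Replicate 2 of the Nur77 line at 1 h stood apart from its group: it lay at 11.7 on the first principal component, against -11.4 to -10.2 for the other 3 libraries of that group. Where leaving it out ends or adds a call, or moves a called value by over 1.5 times, for a gene given singly below, both values are given. Macrophage markers were present in every group, while 5 of 5 epithelial markers were at 0 and no fibroblast or lymphocyte marker passed the filter. The summed level of 10 macrophage markers, of which Cd68 is also one of the 42 genes, at 0 h was 5721 to 5953 CPM in Nur77 libraries and 9045 to 9134 CPM in GFP libraries. Most of that gap was Lyz2 (means of 2781 CPM in Nur77 libraries and 5646 CPM in GFP libraries) and Cd68 (753 and 1186 CPM). Of the 10, 4 were lower, 1 was higher (Fcgr1) and 5 were not called, with a median log2 fold change of -0.05. The summed level of 10 osteoclast markers was 91.6 to 103.6 CPM in Nur77 libraries and 176 to 186 CPM in GFP libraries at 0 h, and 274 to 303 CPM against 930 to 1017 CPM at 5 h. Of the 7 of these tested at 0 h, 4 were lower, Ctsk was higher (means of 20.4 CPM in Nur77 libraries and 13.6 CPM in GFP libraries), and Dcstamp and Nfatc1 were not called. At 5 h most of the sum was Mmp9, with means of 229.9 CPM in Nur77 libraries and 851 CPM in GFP libraries. Of the defining markers in that list, Calcr was at 0 throughout. Chromosome 12 also differed between the lines as a whole: at 0 h, 285 of its 435 tested genes (65.5%) were lower in the Nur77 line, against 18.0% of the genes elsewhere. The part of these differences in the results below was not tested.

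The promoter windows were searched for letters of the CLEAR element. RefSeq windows of 250 bases before to 50 bases after the start (GRCm38.p6) were matched for 35 of the 42 genes. The E-box core of the CLEAR element, CACGTG, reads the same on both strands. It was found before the start in 12 of these 35 (34.3%), against 10.1% of 9705 tested genes and 6.02% of 32851 windows of the table. The 35 come from a chosen list and many lysosomal genes share the element, so this share is a description and was not tested. These 12 were Atp6v1a, Ctsa, Ctsd, Ctsl, Gaa, Gla, Glb1, Lamp1, Lgmn, Mcoln1, Naglu and Sgsh. The longer form TCACGTGA, which contains that core, was found in 5 of 35 (14.3%) against 1.84% of tested genes, and that form with a further G before it and C after it was found in 0 of 35 against 0.618%. The Nur77 response element AAAGGTCA (NBRE), searched on both strands of the same 250 bases, was found in 0 of 35 and in 1.10% of tested genes. The stretches below are shown because their genes carry the results that follow; each is written 5′ to 3′ on the strand of its gene, and capitals mark CACGTG.
Lamp1 (chr8:13159088-13159160, plus strand): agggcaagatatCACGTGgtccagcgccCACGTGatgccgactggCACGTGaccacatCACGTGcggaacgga
Mcoln1 (chr8:3500436-3500491, plus strand): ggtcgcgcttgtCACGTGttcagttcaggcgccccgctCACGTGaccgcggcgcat
Ctsd (chr7:142387908-142387937, minus strand): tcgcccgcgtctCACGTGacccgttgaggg
Lgmn (chr12:102439124-102439153, minus strand): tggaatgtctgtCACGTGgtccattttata
Gla (chrX:134601182-134601244, minus strand): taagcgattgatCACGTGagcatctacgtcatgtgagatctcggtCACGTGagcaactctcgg
Naglu (chr11:101070009-101070038, plus strand): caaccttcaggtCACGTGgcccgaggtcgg
Sgsh (chr11:119355522-119355551, minus strand): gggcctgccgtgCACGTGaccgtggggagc
Atp6v1a (chr16:44139373-44139402, minus strand): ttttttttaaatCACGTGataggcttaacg
Lamp1 held 4 copies within 73 bases and Mcoln1 held 2 within 56 bases. For Lgmn and Atp6v1a the start used lies inside the longest span of the gene. A gene with several windows was counted where any of them held the core. Lgmn and Ctsa also have a window at the outer start of the gene, which held 0 copies. A match of letters is a description of the window and not evidence of binding.

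Most lysosomal genes were lower in the Nur77 line than in the GFP line, before LPS and at both times after it. At 0 h, 32 of 42 were lower and 2 were higher (edgeR quasi-likelihood test, Benjamini-Hochberg adjusted p under 0.05 over all 12198 genes), 34 called in all (81%), where 39.9% of all tested genes were called, 19.7% as lower and 20.3% as higher. At 1 h, 34 were lower and 2 higher, where 51.2% of all tested genes were called, 24.8% as lower and 26.4% as higher. At 5 h, 33 were lower and 2 higher, where 46.4% of all tested genes were called, 24.4% as lower and 22% as higher. The median log2 fold change, Nur77 over GFP line, of the 42 genes was -0.37, -0.51 and -0.51 at 0, 1 and 5 h, and that of all tested genes was 0.02, 0.01 and 0.00. Lower by at least 1 on the log2 scale were 7, 10 and 9 of the 42 at the 3 times, where 5%, 5.37% and 6.72% of all genes met that rule. In all, 29 genes were lower at every time, Ppt1 was higher at every time, and Asah1 and Lipa were called at none. The share of all tested genes with these joint patterns was not counted. Without Nur77 line 1 h replicate 2, the counts were 34 lower and 3 higher at 0 h, 34 and 3 at 1 h, and 33 and 3 at 5 h, where 44.4%, 50.8% and 51.4% of all tested genes were called.

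The genes also took a smaller part of each library. The 42 genes held 2.51% to 2.66% of the counts in Nur77 libraries at 0 h, against 4.90% to 4.98% in GFP libraries. At 1 h the shares were 1.79% to 2.37% in Nur77 libraries and 4.24% to 4.74% in GFP libraries, and at 5 h they were 1.70% to 1.79% and 3.43% to 3.53%. The lines did not overlap at any time, and the lowest 1 h Nur77 share came from replicate 2. These shares are of counts before TMM scaling. Mean TMM factors were 1.13 in Nur77 and 1.08 in GFP libraries at 0 h, and 0.908 and 0.910 at 5 h. The shares therefore fall more from 0 to 5 h than CPM do. Gpnmb alone held 0.385% ± 0.0103 of the counts in Nur77 libraries and 1.40% ± 0.0125 in GFP libraries at 0 h (SD, n = 4). Without Gpnmb the other 41 genes held 2.20% ± 0.0494 in Nur77 libraries and 3.54% ± 0.0385 in GFP libraries at 0 h.

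**Figure D1:**
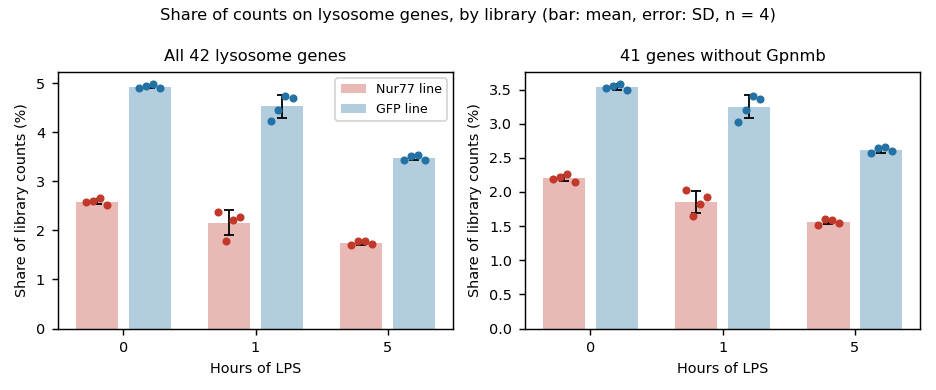
Share of library counts (%, vertical axis from 0) on all 42 lysosome genes (left) and on the 41 without Gpnmb (right), against hours of LPS. Points are libraries, bars are group means and error bars are SD (n = 4), with the Nur77 line left of the GFP line at each time. Every Nur77 library lies below every GFP library of its time, and in both lines the 5 h libraries lie below the 0 h libraries. Shares are of counts before TMM scaling and fall more from 0 to 5 h than CPM do.

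**Figure D2:**
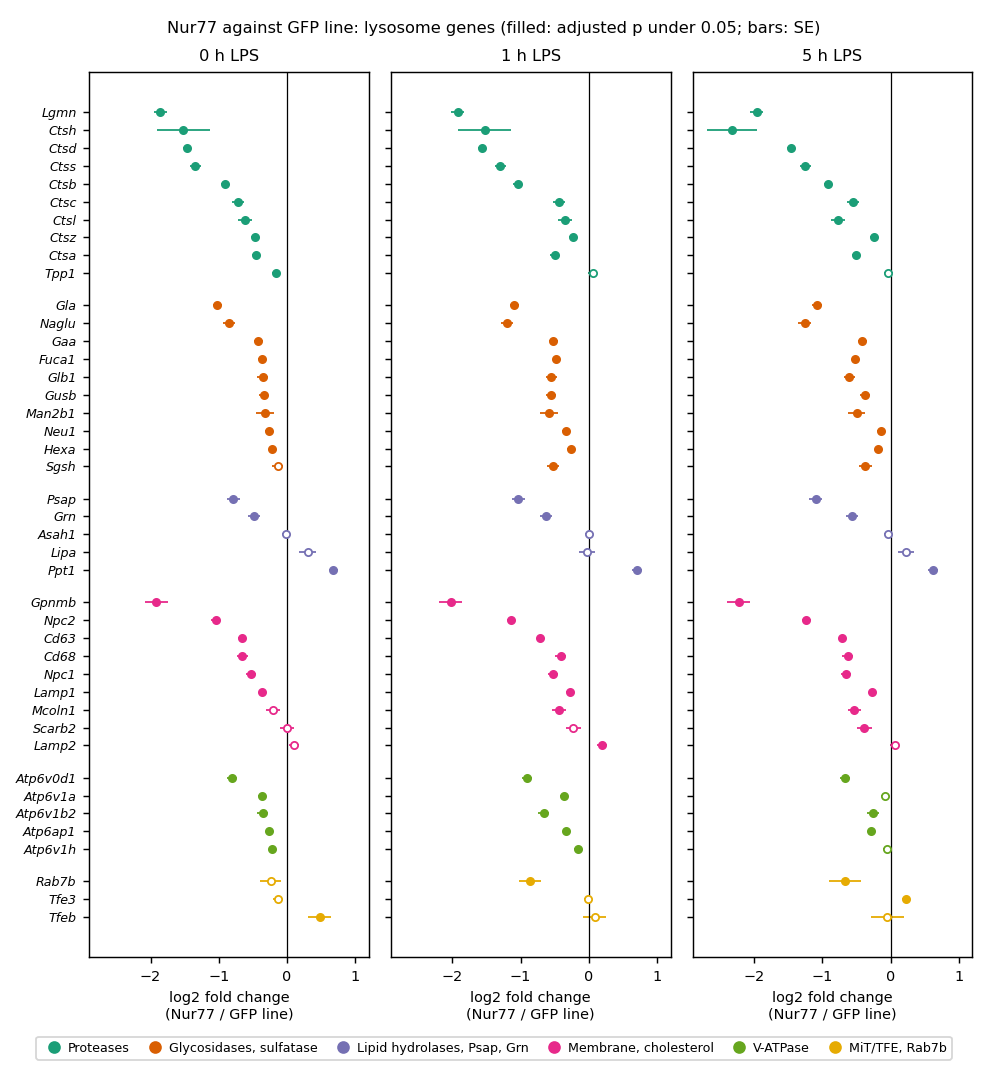
Log2 fold change between the lines (Nur77 over GFP, horizontal axis) for each of the 42 genes at 0, 1 and 5 h of LPS, ordered by role and coloured by role. Bars are SE, and filled points passed an adjusted p of 0.05. Proteases and glycosidases lie left of 0 at every time apart from Tpp1 at 1 h, which was not called, and Ppt1 is the only gene called to the right of 0 at all 3 times.

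Role counts here and below stand beside 19.7%, 24.8% and 24.4% of all tested genes lower at 0, 1 and 5 h. The 42 genes were chosen with earlier results of these data known. Of 8 other lysosomal proteases tested, 1 was lower and 3 were higher at 0 h. In the Nur77 line all 10 proteases of the list were lower at 0 h, and 9 of 10 at 1 h and at 5 h. Their median log2 fold change was -0.81, -0.77 and -0.84. The exception was Tpp1, encoding tripeptidyl peptidase 1, at -0.16, 0.06 and -0.03, of which the first was called. Lgmn encodes legumain, an asparaginyl endopeptidase that also processes the cathepsins (chr12:102394082-102439728). At 0 h it had 317, 309, 334 and 305 CPM in Nur77 libraries, against 1151, 1118, 1130 and 1191 CPM in GFP libraries. After 5 h of LPS it had 177, 186, 188 and 171 CPM in Nur77 libraries, against 690, 713, 716 and 690 CPM in GFP libraries. The lines were far apart in every library, with a log2 fold change of -1.86 at 0 h (SE 0.10, adjusted p = 3.18e-14), -1.92 at 1 h and -1.96 at 5 h. Lgmn lies on chromosome 12, whose tested genes had a median log2 fold change of -0.41 at 0 h, against 0.03 for those elsewhere.

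Ctsd encodes cathepsin D, the main aspartic protease of the lysosome (chr7:142375910-142387827). It had 2419, 2452, 2546 and 2315 CPM in Nur77 libraries at 0 h, against 6795, 6692, 6926 and 6613 CPM in GFP libraries. At 1 h the values were 2326, 2047, 2002 and 2191 CPM in Nur77 libraries and 5904, 6132, 6777 and 6659 CPM in GFP libraries. At 5 h they were 1803, 1984, 2006 and 1912 CPM in Nur77 libraries and 5205, 5457, 5443 and 5121 CPM in GFP libraries. No Nur77 library reached the GFP range at any time, and the log2 fold changes were -1.47, -1.57 and -1.46 (SE 0.06 each; adjusted p = 8.42e-17 at 0 h), or 2.78-fold lower at 0 h.

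Ctss, the gene of cathepsin S, a cysteine protease of antigen presentation, stood at 977, 972, 946 and 995 CPM in Nur77 libraries at 0 h and 2357, 2420, 2262 and 2847 CPM in GFP libraries. The difference was -1.35, -1.29 and -1.25 on the log2 scale at 0, 1 and 5 h, and replicate 4 was the highest of the GFP libraries. Ctsb, the gene of the cysteine protease cathepsin B, had 2788 to 2989 CPM in Nur77 libraries and 5043 to 5679 CPM in GFP libraries at 0 h, with log2 fold changes of -0.91, -1.04 and -0.91. Ctsc, which encodes the dipeptidyl peptidase that activates granule proteases, was lower by 0.72, 0.43 and 0.55, and Ctsa, encoding the protective protein of neuraminidase 1, by 0.45, 0.50 and 0.51. Ctsl, the gene of cathepsin L, was lower by 0.62, 0.35 and 0.77, and Ctsz, the gene of the carboxypeptidase cathepsin Z, by 0.47, 0.24 and 0.24. The 1 h differences of Ctsc, Ctsl and Ctsz carried overlapping libraries, since replicate 2 of the Nur77 line had 117 CPM of Ctsc against 77.1 to 84.0 CPM in the other 3, and 1530 CPM of Ctsl against 865 to 938 CPM. Without it the 1 h log2 fold change was -0.58 for Ctsl, -0.59 for Ctsc and -0.29 for Ctsz.

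Ctsh, the gene of cathepsin H, an aminopeptidase, was at low counts in both lines. It had 0.484, 0.275, 0.178 and 0.195 CPM in Nur77 libraries and 0.929, 0.410, 0.715 and 1.08 CPM in GFP libraries at 0 h, where the ranges overlapped. At 5 h the values were 0.113, 0.432, 0.223 and 0.365 CPM in Nur77 libraries and 1.45, 1.16, 1.14 and 1.48 CPM in GFP libraries, and the ranges did not overlap. The log2 fold changes were -1.52, -1.53 and -2.32, with SE of 0.39, 0.39 and 0.36.

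Glycosidases and the sulfatase Sgsh were lower in 9 of 10 at 0 h and in 10 of 10 at 1 h and 5 h, by smaller amounts, with medians of -0.35, -0.54 and -0.46. Gla, encoding alpha-galactosidase A, the enzyme lacking in Fabry disease, had 80.9, 81.4, 82.0 and 77.3 CPM in Nur77 libraries and 157, 161, 170 and 164 CPM in GFP libraries at 0 h. By 5 h it had 47.8, 47.4, 47.4 and 47.8 CPM in Nur77 libraries and 96.1, 104, 103 and 100 CPM in GFP libraries. The Nur77 values were close to each other and far below the GFP values, with log2 fold changes of -1.02, -1.09 and -1.08.

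Naglu encodes N-acetyl-alpha-glucosaminidase, a heparan sulfate enzyme. It had 51.3, 50.6, 47.3 and 46.6 CPM in Nur77 libraries at 0 h, against 87.3, 94.9, 95.7 and 73.8 CPM in GFP libraries. After 5 h it had 26.3, 33.7, 34.8 and 30.1 CPM in Nur77 libraries and 71.5, 77.1, 75.1 and 74.4 CPM in GFP libraries. The lines did not overlap at either time, and the log2 fold change was -0.85, -1.20 and -1.26 at 0, 1 and 5 h (SE 0.09 each; adjusted p = 1.4e-11 at 5 h). The remaining glycosidase genes differed by -0.60 to -0.15 and were lower at all 3 times: Fuca1 (alpha-fucosidase), Gaa (acid alpha-glucosidase, which degrades glycogen), Glb1 (beta-galactosidase), Gusb (beta-glucuronidase), Hexa (the alpha subunit of beta-hexosaminidase), Man2b1 (alpha-mannosidase) and Neu1 (neuraminidase 1). Sgsh, the gene of the heparan sulfate sulfamidase, was at -0.14 at 0 h and not called (adjusted p = 0.198), and was lower by 0.53 at 1 h and 0.37 at 5 h.

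The lipid hydrolases differed among themselves. Psap, the gene of prosaposin, the precursor of the saposins that activate sphingolipid hydrolases, had 935, 928, 962 and 902 CPM in Nur77 libraries at 0 h and 1636, 1591, 1673 and 1528 CPM in GFP libraries. It was lower by 0.79 at 0 h, 1.03 at 1 h and 1.10 at 5 h. At 1 h its Nur77 values were 912, 548, 712 and 862 CPM, lowest in replicate 2, against 1517 to 1584 CPM in GFP libraries, and still without overlap. Grn, the gene of progranulin, a lysosomal and secreted protein, was lower by 0.49, 0.62 and 0.56.

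Ppt1, encoding palmitoyl-protein thioesterase 1 (chr4:122836077-122859175), was the exception in direction. It had 479, 466, 482 and 462 CPM in Nur77 libraries and 287, 304, 297 and 291 CPM in GFP libraries at 0 h. At 1 h it had 457, 618, 445 and 451 CPM in Nur77 libraries and 292, 291, 310 and 310 CPM in GFP libraries, and at 5 h 354, 351, 350 and 359 CPM against 221, 234, 231 and 232 CPM. Every Nur77 library was above every GFP library, with log2 fold changes of 0.68, 0.71 and 0.62 (SE 0.07 each; adjusted p = 2.89e-08 at 0 h), and 0.58 at 1 h without replicate 2. Its span overlaps that of Cap1, and the strand setting of the counting is not given in the sources used here. Of the listed genes, Ctsa, Ctsb, Ctss, Ctsz, Hexa, Glb1, Sgsh, Asah1, Lamp2, Scarb2, Npc1, Atp6v1b2 and Tfe3 also overlap other genes. Asah1, the gene of acid ceramidase, had log2 fold changes of -0.02, 0.00 and -0.04 and was not called. Lipa, the gene of lysosomal acid lipase, had 1011, 984, 1008 and 1024 CPM in Nur77 libraries and 822, 834, 864 and 750 CPM in GFP libraries at 0 h, without overlap. Its log2 fold change of 0.30 missed the threshold (adjusted p = 0.0510), at 1 h and 5 h it was at -0.02 and 0.22, and without Nur77 line 1 h replicate 2 it was called as higher at all 3 times (0.30, 0.16 and 0.22).

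Among membrane proteins and cholesterol transporters, 6 of 9 were lower at 0 h, 7 of 9 lower and 1 higher at 1 h, and 8 of 9 lower at 5 h. Gpnmb, encoding a transmembrane glycoprotein of macrophages, osteoclasts and melanocytes (chr6:49036518-49058182), showed a log2 fold change of -1.91, -2.03 and -2.23. At 0 h it had 3497, 3388, 3476 and 3296 CPM in Nur77 libraries, against 12904, 12541, 12935 and 13110 CPM in GFP libraries. At 1 h it had 3363, 1565, 4130 and 3441 CPM in Nur77 libraries, against 12274, 12236, 13224 and 13139 CPM in GFP libraries. At 5 h it had 1980, 2055, 2099 and 1993 CPM in Nur77 libraries, against 9381, 9765, 9615 and 9260 CPM in GFP libraries. The ranges of the lines did not overlap at any time, and the difference was 3.77-fold at 0 h (SE 0.16 on the log2 scale, adjusted p = 3.99e-09) and 4.68-fold at 5 h. Without replicate 2 the 1 h value was -1.80. Gpnmb is shared with melanocytes. Of the 5 melanocyte markers listed, Mlana, Tyr, Tyrp1 and Dct were at or below 0.0845 CPM in every library. Pmel, which passed the filter, was at or below 0.943 CPM. Gpnmb is also an osteoclast gene. Of the 7 osteoclast markers tested, 4 were lower and 1 higher in the Nur77 line at 0 h, and 5 lower and 1 higher at 5 h. The 120 bases before the Gpnmb start (chr6:49036398-49036517, plus strand) are shown because of the share of counts that Gpnmb holds. No capitals are used because none of the searched letters are there.
Gpnmb: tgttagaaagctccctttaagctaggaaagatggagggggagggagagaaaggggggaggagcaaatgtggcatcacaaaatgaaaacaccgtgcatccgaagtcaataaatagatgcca
The letters TCATGTG, a form of the M-box that MITF binds, were searched on both strands and were found before the start in 3 of the 35 matched genes (8.57%) and in 2.29% of tested genes.

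Npc2 encodes the luminal cholesterol carrier that hands cholesterol to the membrane protein encoded by Npc1. It had 242, 233, 233 and 235 CPM in Nur77 libraries and 482, 471, 479 and 516 CPM in GFP libraries at 0 h. At 5 h it had 230, 240, 262 and 242 CPM in Nur77 libraries and 567, 583, 593 and 545 CPM in GFP libraries. The log2 fold changes were -1.05, -1.14 and -1.23, without overlap of the lines, and Npc2 (chr12:84754559-84773112) is the other of the 42 genes on chromosome 12. Npc1 was lower by 0.53, 0.52 and 0.66, the tetraspanin gene Cd63 by 0.66, 0.71 and 0.70, and the macrophage scavenger receptor gene Cd68 by 0.66, 0.41 and 0.62. Lamp1, encoding a major glycoprotein of the lysosomal membrane, had 1246, 1253, 1232 and 1247 CPM in Nur77 libraries and 1546, 1586, 1552 and 1712 CPM in GFP libraries at 0 h. It was lower by 0.36, 0.28 and 0.27. Lamp2, its relative in chaperone-mediated autophagy, was at 0.10 and 0.06 at 0 h and 5 h and not called. Its higher value at 1 h (0.19, adjusted p = 0.0290) was not called without Nur77 line replicates 2, 3 or 4 or GFP line replicates 3 or 4 of that time (0.16 in each, adjusted p = 0.0650 to 0.102), nor with the mean over its transcripts (0.06).

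Mcoln1, encoding the calcium channel TRPML1, was at -0.21 at 0 h (adjusted p = 0.101) and lower by 0.44 at 1 h and 0.53 at 5 h. Scarb2, encoding the sorting receptor of glucocerebrosidase, had 128, 116, 121 and 125 CPM in Nur77 libraries and 122, 123, 122 and 122 CPM in GFP libraries at 0 h, a log2 fold change of 0.00 with a 95% interval of -0.20 to 0.21. It was lower by 0.38 at 5 h, when it had 49.3, 50.7, 54.4 and 52.7 CPM in Nur77 libraries and 63.8, 70.2, 68.5 and 67.2 CPM in GFP libraries.

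All 5 V-ATPase genes were lower at 0 h and at 1 h, and 3 of 5 at 5 h. Atp6v0d1, a subunit of the membrane sector, had 95.7, 103, 108 and 93.8 CPM in Nur77 libraries and 184, 177, 178 and 161 CPM in GFP libraries at 0 h. It was lower by 0.81, 0.91 and 0.67. Atp6v1a, the catalytic subunit, was lower by 0.37 at 0 h and 0.36 at 1 h and stood at -0.08 at 5 h (adjusted p = 0.234). Atp6v1b2, the other nucleotide-binding subunit, was lower by 0.36, 0.66 and 0.26, and the accessory subunit Atp6ap1 by 0.27, 0.33 and 0.28. Atp6v1h was lower by 0.22 and 0.16 at 0 and 1 h and stood at -0.06 at 5 h.

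Neither transcription factor gene was called as lower in the Nur77 line. Tfeb had 26.3, 27.0, 27.4 and 24.1 CPM in Nur77 libraries and 17.4, 19.9, 18.9 and 19.1 CPM in GFP libraries at 0 h, so that every Nur77 library was above every GFP library. It was higher by 0.48 (SE 0.16, adjusted p = 0.0220), and the call was lost without Nur77 line 0 h replicate 2 (0.45, adjusted p = 0.0547) or 3 (0.44, adjusted p = 0.0578) or without GFP line 0 h replicate 1 (0.44, adjusted p = 0.0558). At 1 h it was at 0.09 (adjusted p = 0.693), and without Nur77 line 1 h replicate 2 it was called as higher (0.30, adjusted p = 0.0213). At 5 h it was at -0.05, with a 95% interval of -0.52 to 0.43.

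Tfe3 had 72.9, 77.8, 77.2 and 69.0 CPM in Nur77 libraries and 83.1, 77.8, 78.9 and 87.4 CPM in GFP libraries at 0 h, a log2 fold change of -0.14 that was not called (adjusted p = 0.0679). It was called as lower there without Nur77 line 0 h replicate 2 or 3, Nur77 line 1 h replicate 1 or 2, or GFP line 1 h replicate 1 (-0.17 to -0.14, adjusted p = 0.0428 to 0.0493). At 5 h it had 100, 104, 97.7 and 88.4 CPM in Nur77 libraries and 81.5, 82.6, 82.1 and 87.9 CPM in GFP libraries, just without overlap, and was higher by 0.23. Rab7b, the gene of a GTPase of late endosomes that lowers Toll-like receptor 4 at the lysosome, was at -0.24 at 0 h (adjusted p = 0.227) and lower by 0.86 at 1 h and 0.67 at 5 h. Without Nur77 line 1 h replicate 2 it was also called as lower at 0 h (-0.24, adjusted p = 0.0108), and its 1 h value was -0.66.

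**Figure D3:**
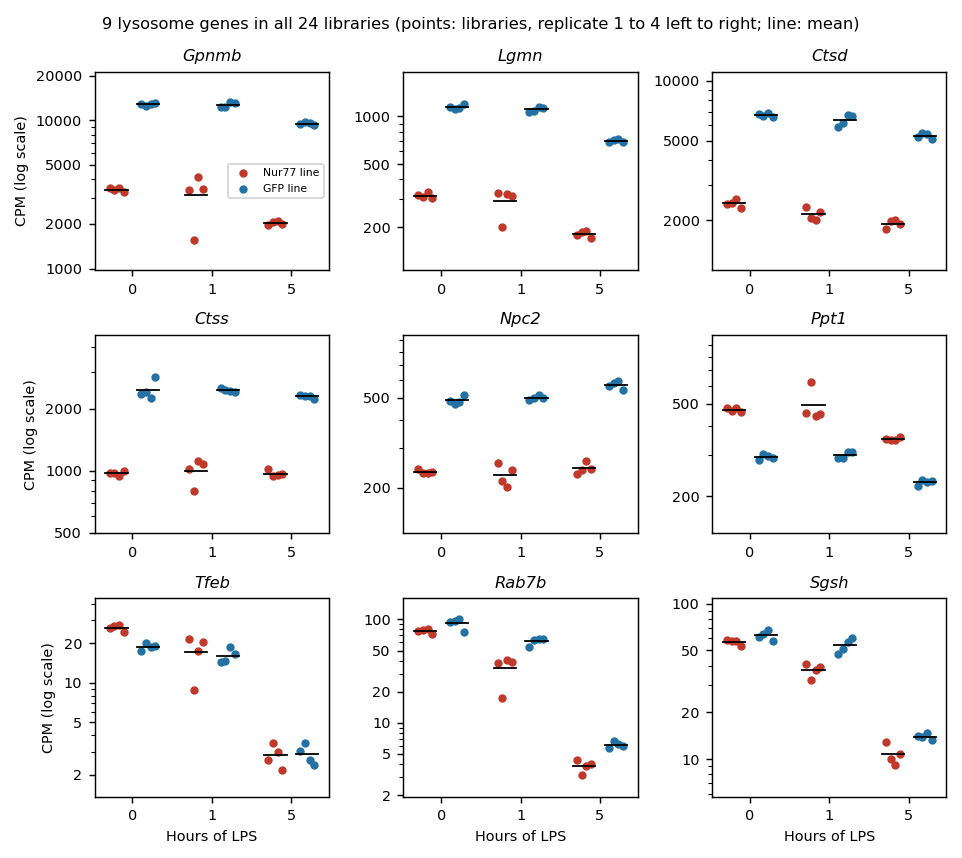
CPM (vertical axes, log scale) of 9 lysosome genes in all 24 libraries, against hours of LPS. Points are libraries, replicates 1 to 4 from left to right, and lines are group means, with the Nur77 line left of the GFP line at each time. Gpnmb, Lgmn, Ctsd, Ctss and Npc2 keep the Nur77 line below the GFP line at every time, Ppt1 keeps it above, and Tfeb, Rab7b and Sgsh drop by 5 h in both lines. Replicate 2 of the Nur77 line at 1 h lies apart for Gpnmb, Lgmn, Ppt1, Tfeb and Rab7b.

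The genes with the E-box core and those without it were both mostly lower in the Nur77 line. Of the 12 with CACGTG before the start, 10 were lower at 0 h, 12 at 1 h and 11 at 5 h, with medians of -0.44, -0.52 and -0.57. Of the 23 whose windows lack it, 17, 16 and 17 were lower and 2 higher at each time, with medians of -0.34, -0.41 and -0.38. Gpnmb and Npc2 are among the 23, and the difference between these groups of genes was not tested.

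The response to LPS was examined in each line against its own 0 h libraries. At 1 h few lysosomal genes had changed in the GFP line: 2 of 42 were higher and 1 lower, where 17.4% of all tested genes were called, 9.75% as higher and 7.68% as lower. In the Nur77 line 8 were higher and 15 lower, where 44.4% of all tested genes were called, 22.5% as higher and 21.8% as lower. That count rests on the 1 h libraries of the Nur77 line. It was 17 without replicate 2 (5 higher, 12 lower, where 38.2% of all genes were called), 15 without replicate 3, and 7 when just those 8 libraries were fitted. The share of all genes called was not counted without replicate 3 or in the fit of just those 8 libraries. The difference of the 1 h responses was called for 0 of the 42, with 9 at an unadjusted p under 0.05 and 1 called by the DESeq2 Wald test, where 1.13% of all genes were called. Without Nur77 line 1 h replicate 1 it was called for 5, and the share of all genes called in that fit was not counted.

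Tfe3 rose in both lines at 1 h. It had 111, 98.4, 113 and 105 CPM at 1 h, against 72.9 to 77.8 CPM at 0 h, in the Nur77 line (log2 fold change 0.53), and 102, 109, 111 and 110 CPM at 1 h, against 77.8 to 87.4 CPM at 0 h, in the GFP line (0.40). Rab7b fell by 1.19 in the Nur77 line, to 38.3, 17.4, 40.4 and 38.9 CPM, against 72.4 to 80.9 CPM at 0 h, and by 0.98 without replicate 2. In the GFP line it fell by 0.57, to 53.8, 63.1, 64.7 and 64.5 CPM, against 75.4 to 99.9 CPM at 0 h. Replicate 2 of the Nur77 line was the lowest of all these 1 h libraries. The proton pump gene Atp6v1h was the third that changed in both, with log2 fold changes of 0.26 in the Nur77 line and 0.20 in the GFP line.

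Further calls at 1 h in the Nur77 line included Sgsh (-0.60), Tfeb (-0.62, and -0.41 without replicate 2) and Naglu (-0.41), which stood at -0.21, -0.23 and -0.06 in the GFP line and were not called there. Without replicate 2 of the Nur77 line, Sgsh was called in the GFP line as well (-0.21, adjusted p = 0.0419). Tfeb had 21.4, 8.75, 17.4 and 20.5 CPM at 1 h, against 24.1 to 27.4 CPM at 0 h. Lipa (-0.36) was at -0.18 without replicate 2, and was still called. Ctsl was called as higher (0.33) and lost the call without that library (0.11, adjusted p = 0.0505). Ctsc (0.31) was at 0.16 without it, and Ctsz (0.24) at 0.18. With just those 8 libraries, Tfeb, Lipa, Ctsl and Ctsc were not called (adjusted p = 0.0593 to 0.160).

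With all libraries, the same number of lysosomal genes was called in each line at 5 h of LPS: 23 were lower and 5 higher. Where 66.7% of all tested genes were called in the Nur77 line and 62.6% in the GFP line, the 28 of 42 (66.7%) were near the background in number. Lower were 54.8% and higher 11.9% of the 42 in each line, while of all genes 34.2% were lower and 32.5% higher in the Nur77 line and 32% were lower and 30.6% higher in the GFP line. The median log2 fold change of the 42 genes was -0.20 in the Nur77 line and -0.19 in the GFP line, against -0.03 and -0.02 for all genes. In both lines 21 were lower and 2 higher, 9 were called in neither, and 0 were called in opposite directions. The share of all tested genes with these joint patterns was not counted. Without Nur77 line 1 h replicate 2, 24 were lower and 5 higher in the Nur77 line (29 called, against 68.7% of all genes). In the GFP line 26 were then lower and 7 higher (33 called, against 65.2% of all genes).

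**Figure D4:**
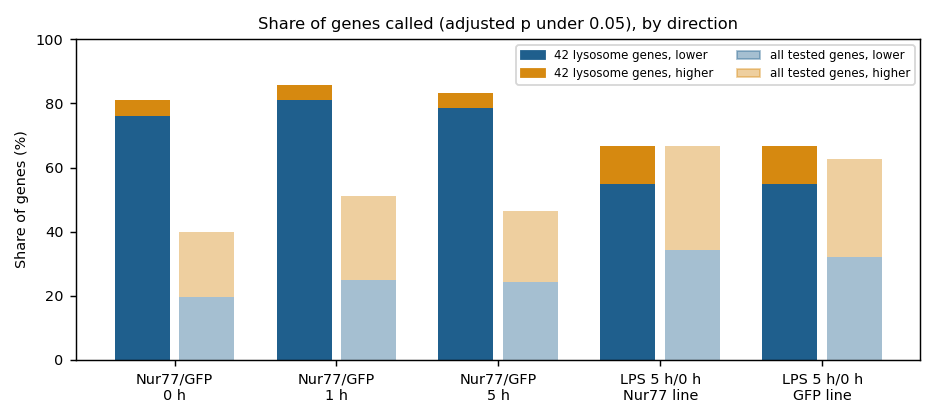
Share of genes called (%, vertical axis) as lower or higher in 5 comparisons, for the 42 lysosome genes (dark bars, left of each pair) and all 12198 tested genes (pale bars). In the comparisons of the lines 76.2% to 81% of the lysosome genes were lower, against 19.7% to 24.8% of all genes. With all libraries, the total share of lysosome genes after 5 h of LPS (66.7% in each line) was close to that of all genes.

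The largest falls at 5 h were those of Rab7b, Tfeb and Sgsh. Rab7b had 4.36, 3.10, 3.86 and 4.01 CPM at 5 h, against 77.5, 78.7, 80.9 and 72.4 CPM at 0 h, in the Nur77 line, and 5.70, 6.72, 6.28 and 5.94 CPM at 5 h, against 94.7, 95.6, 99.9 and 75.4 CPM at 0 h, in the GFP line. It fell by 4.31 in the Nur77 line (SE 0.20, adjusted p = 8.39e-15), which is 19.9-fold, and by 3.88 in the GFP line (SE 0.18, adjusted p = 1.15e-14), which is 14.7-fold. The 0 h and 5 h libraries were far apart in both lines. Tfeb had 2.60, 3.46, 2.97 and 2.19 CPM at 5 h, against 26.3, 27.0, 27.4 and 24.1 CPM at 0 h, in the Nur77 line. In the GFP line it had 3.02, 3.47, 2.59 and 2.37 CPM at 5 h, against 17.4, 19.9, 18.9 and 19.1 CPM at 0 h. It fell by 3.22 in the Nur77 line (9.33-fold) and fell by 2.70 in the GFP line (6.49-fold), to levels that overlapped between the lines. Sgsh had 12.9, 10.1, 9.21 and 10.8 CPM at 5 h, against 53.7 to 58.7 CPM at 0 h, in the Nur77 line, and 14.1, 13.9, 14.7 and 13.2 CPM at 5 h, against 57.9 to 67.6 CPM at 0 h, in the GFP line. Its log2 fold changes were -2.39 in the Nur77 line and -2.16 in the GFP line, and its span overlaps those of Card14 and Slc26a11.

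Falls of about 1 on the log2 scale followed. Scarb2 fell by 1.24 in the Nur77 line and 0.86 in the GFP line. Lipa fell by 1.03 in the Nur77 line, to 457, 494, 512 and 514 CPM, and by 0.95 in the GFP line, to 425, 432, 426 and 409 CPM, and the 5 h libraries lay below every 0 h library of their line. Lgmn fell by 0.81 and 0.71, Psap by 0.82 and 0.51, Gla by 0.76 and 0.70, and Neu1 by 0.60 and 0.72, each in the Nur77 line and then the GFP line. Gpnmb fell by 0.75 in the Nur77 line (SE 0.16, adjusted p = 0.0003) and by 0.44 in the GFP line (SE 0.16, adjusted p = 0.0207). Ppt1, the gene that was higher in the Nur77 line, fell by 0.42 there and by 0.36 in the GFP line.

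The roles differed in their counts after 5 h, beside 34.2% of all genes lower in the Nur77 line and 32% in the GFP line. Of the 10 glycosidase and sulfatase genes 9 were lower in each line, Gaa being the exception (-0.14 in the Nur77 line, -0.15 in the GFP line), and all 5 lipid hydrolase genes and cofactors were lower in each. Of the 3 genes of MiT/TFE factors and Rab7b, 2 were lower in each. Among the proteases, in the Nur77 line 3 of 10 were lower and 2 higher, and in the GFP line 2 were lower and 2 higher, while Ctsb, Ctsl, Ctss and Tpp1 were called in neither. Ctsz rose by 0.52 in the Nur77 line and 0.30 in the GFP line, and Ctsc by 0.31 in the Nur77 line, with 0.15 in the GFP line that was not called. Without Nur77 line 1 h replicate 2, the GFP line values of Ctsc (0.15, adjusted p = 0.0207), Tpp1 (-0.13, adjusted p = 0.0393) and Gaa (-0.15, adjusted p = 0.0416) were called, as was the Nur77 line value of Ctsl (-0.10, adjusted p = 0.0333). Ctsh was called as higher in the GFP line (0.69, adjusted p = 0.0352), at under 1.5 CPM. That call was lost with the DESeq2 Wald test (adjusted p = 0.0672), without the filter (adjusted p = 0.0660), and without GFP line 0 h replicate 2 (0.51) or 3 (0.64) or GFP line 5 h replicate 1 (0.65) or 4 (0.64).

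Of the 9 membrane genes 4 were lower and 0 higher in the Nur77 line, and 4 were lower and 2 higher in the GFP line. Gpnmb, Npc1 and Scarb2 were lower in both, and Npc2 rose by 0.23 in the GFP line and stood at 0.05 in the Nur77 line. Cd63 was called as higher in the GFP line (0.15, adjusted p = 0.0249), but not without GFP line 0 h replicate 2 (0.14, adjusted p = 0.0604) or 3 (0.14, adjusted p = 0.0587). Of the 5 V-ATPase genes 2 were higher in the Nur77 line, and 1 was higher and 1 lower in the GFP line. Atp6v1h had 184, 192, 191 and 192 CPM at 5 h, against 114, 120, 120 and 127 CPM at 0 h, in the Nur77 line, and 192, 200, 199 and 198 CPM at 5 h, against 139, 138, 139 and 144 CPM at 0 h, in the GFP line. It rose by 0.65 and 0.50, without overlap of 5 h and 0 h libraries in either line. Atp6v1b2 rose by 0.26 in the Nur77 line, and Atp6v1a fell by 0.25 in the GFP line.

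**Figure D5:**
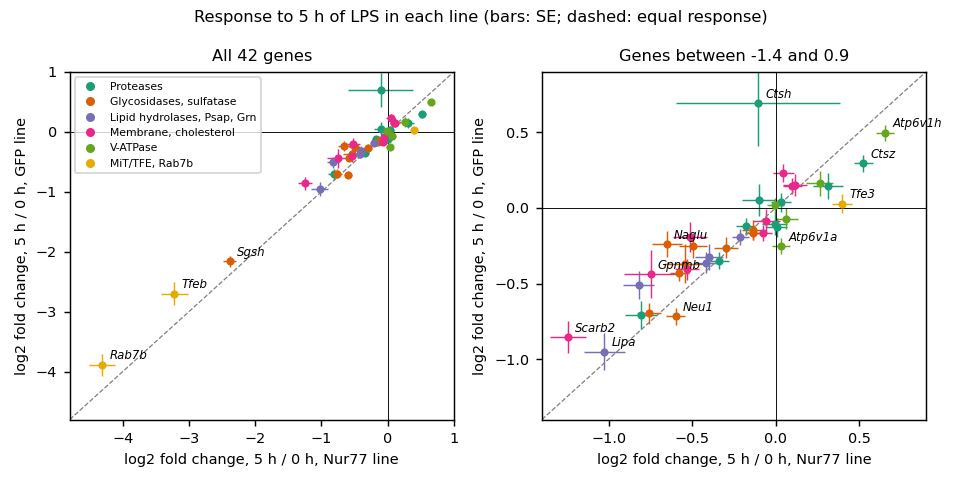
Log2 fold change after 5 h of LPS against 0 h in the Nur77 line (horizontal axis) and in the GFP line (vertical axis) for all 42 genes (left) and, enlarged, those between -1.4 and 0.9 (right). Points are genes coloured by role, bars are SE and the dashed line marks equal responses. Rab7b, Tfeb and Sgsh fell most in both lines, at -4.31, -3.22 and -2.39 in the Nur77 line, and Tfe3 and Atp6v1a lie below the dashed line.

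The difference of the 5 h responses between the lines was called for 3 of the 42, where 7.88% of all tested genes were called. It was higher for 2 and lower for 1, with 2.75% and 5.12% of all genes in these directions. Tfe3 had a difference of 0.37 (SE 0.09, adjusted p = 0.00659), from a rise of 0.40 in the Nur77 line and 0.03 in the GFP line. Atp6v1a had a difference of 0.29 (adjusted p = 0.0220), from 0.03 in the Nur77 line and -0.25 in the GFP line. That call was lost without Nur77 line 0 h replicate 3 (0.28, adjusted p = 0.0510) or Nur77 line 5 h replicate 4 (0.24, adjusted p = 0.0604). Naglu had a difference of -0.41 (adjusted p = 0.0383), from -0.65 in the Nur77 line and -0.24 in the GFP line. It was not called without Nur77 line 0 h replicate 1, 2 or 3, Nur77 line 5 h replicate 1 or 4, GFP line 0 h replicate 1 or 4, or any of the 4 GFP line 5 h replicates (-0.43 to -0.33, adjusted p = 0.0523 to 0.114), nor with a replicate block (adjusted p = 0.0529).

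The count of 3 depends on Nur77 line 1 h replicate 2, which does not enter this difference but enters the estimate of each gene's spread. Without it 8 were called, where 13.7% of all genes were called: Ctsz, Naglu, Psap, Gpnmb, Scarb2, Atp6v1a, Tfe3 and Rab7b. The difference of Gpnmb was -0.31 with all libraries (adjusted p = 0.464) and -0.31 without that library (adjusted p = 0.00238). When just the 16 libraries of the 0 and 5 h groups were fitted, 10 were called, and Tfeb was among them (-0.52, adjusted p = 0.0367). With 1 library left out the count was 1 without Nur77 line 0 h replicate 3 and 1 without Nur77 line 5 h replicate 4. The share of all genes called was not counted for these fits or for that of the 16 libraries.

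Lysosomal genes outside the 42 were also compared between the lines, and their counts at 0 h stand beside 19.7% lower and 20.3% higher of all tested genes. Of 15 other V-ATPase subunit genes tested, 12 were lower and 1 higher in the Nur77 line at 0 h, and 12 and 1 at 5 h. Atp6v0d2, the membrane-sector subunit of osteoclasts, averaged 2.29 CPM in Nur77 libraries and 62.3 CPM in GFP libraries at 0 h (log2 fold change -4.75). Tcirg1, encoding a further membrane-sector subunit of osteoclasts, was lower by 1.02, and Atp6v1d by 1.11. Of 24 other hydrolases of glycans, sulfates and nucleic acids, 14 were lower and 2 higher at 0 h. Among these, the hyaluronidase gene Hyal1 averaged 14.3 CPM in Nur77 libraries and 94.6 CPM in GFP libraries (-2.72), and the galactocerebrosidase gene Galc was lower by 0.88. Galc lies on chromosome 12, whose tested genes had a median log2 fold change of -0.41 at 0 h. Of 26 other membrane proteins and transporters 13 were lower and 1 higher, among them the endolysosomal channel gene Tpcn2 (-1.03) and the chloride transporter gene Clcn7 (-0.52).

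Of 8 other proteases tested, 3 were higher and 1 lower at 0 h, with the carboxypeptidase gene Cpq at 1.95 and the cathepsin K gene Ctsk at 0.58, and Scpep1 lower by 0.86. Of 7 other lipid hydrolases and activators 3 were lower, led by Gm2a, the gene of the ganglioside activator (-0.71). Genes of mannose 6-phosphate sorting and delivery, which bring enzymes to the lysosome, were lower in 11 of 26, with the sortilin gene Sort1 at -1.97 and the receptor gene Igf2r at -0.92. Of 24 autophagy genes 9 were lower and 1 higher, with Tecpr1 at -0.94 and the receptor gene Sqstm1 at -0.31. Only their total was close to the share of all genes, of which 19.7% were lower and 20.3% higher.

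Of 24 other MiT/TFE factors and their regulators, 7 were lower and 3 higher at 0 h. Their total was close to the 39.9% called of all genes, of which 19.7% were lower and 20.3% higher. Mitf averaged 32.5 CPM in Nur77 libraries and 51.2 CPM in GFP libraries at 0 h, and 65.6 CPM and 139.8 CPM at 5 h. It was lower in the Nur77 line by 0.66 and 1.09, and it rose after 5 h of LPS by 1.01 in the Nur77 line and 1.45 in the GFP line, a difference of -0.43 (adjusted p = 0.0270). Fnip2, the gene of a partner of folliculin, which governs TFEB and TFE3 through Rag GTPases, was lower by 1.05 at 0 h. The Rag GTPase genes were at 0.89 for Rragb, -0.48 for Rraga and -0.40 for Rragc.

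After 5 h of LPS 34.2% of all genes were lower and 32.5% higher in the Nur77 line, and 32% and 30.6% in the GFP line. Of 7 lipid hydrolases and activators 6 were lower in each line, among them Pcyox1 (-1.98 in the Nur77 line, -1.49 in the GFP line). Of 15 V-ATPase subunits 5 were higher and 3 lower in the Nur77 line, and 4 and 4 in the GFP line, near or below the shares of all genes. Atp6v1e1 was at 0.77 and 0.78. Membrane proteins included a rise of Cln3 (1.21 in the Nur77 line, 1.27 in the GFP line), the gene of a Batten disease protein, and a fall of the endolysosomal channel gene Tpcn1 (-2.52 and -2.01). Acp5, the gene of tartrate-resistant acid phosphatase, averaged 1.10 CPM in Nur77 libraries and 35.5 CPM in GFP libraries at 5 h, and its 5 h responses differed by -1.98 (adjusted p = 0.000974). Sqstm1 rose by 1.06 in the Nur77 line and by 1.68 in the GFP line, with a difference of -0.62 (adjusted p = 0.000291), and Clcn7 differed by -0.87.

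The genes whose levels followed Gpnmb most closely over the 24 libraries, by Pearson correlation of log2 CPM, were Lyz2 (lysozyme, r = 0.991), Lgmn (0.991), Atp6v0d2 (0.991), Dio2 (a deiodinase, 0.990) and Tnfsfm13 (0.988). Of these, Lgmn and Dio2 lie on chromosome 12, which differed between the lines as a whole. Libraries of a group share line and time, so these values describe the order of 6 groups more than 24 separate points. Lyz2 averaged 2781 CPM in Nur77 libraries and 5646 CPM in GFP libraries at 0 h, and 2032 CPM and 4460 CPM at 5 h.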

How the data were processed

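RNA from 24 libraries was sequenced and the authors deposited a table of estimated counts per transcript, in multiples of 0.5, with no normalization. CASAVA 1.8.2, HISAT2 2.1.0 and the mm10 build are named per the submitters' processing notes; the sources used here do not give the counting tool or its strand setting. Of 42361 transcripts, 42198 were matched to RefSeq, 70 to GENCODE, and 93 kept their own IDs.

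The 42 genes and the other lists were chosen with earlier results of these data known. The genes given with values are the members themselves and, from the other lists, up to 5 called genes per direction with the largest log2 fold change and at least 10 CPM in the higher group. Each gene was taken as its transcript with the highest mean, rounded to whole counts. Genes were filtered by filterByExpr, scaled by TMM (factors 0.8962 to 1.138) and fitted with 6 group means over all 24 libraries by the quasi-likelihood test of edgeR 4.0.16 (limma 3.58.1, R 4.3.3), with Benjamini-Hochberg adjustment over 12198 genes and a threshold of 0.05. Every adjusted p is from this test unless another is named. A difference of responses is the interaction of line and time. CPM are counts scaled to library size with the TMM factors. Total counts of 8134143 to 29275847 per library limit precision for low genes. No replicates were alike within sampling noise: the smallest chi-square per degree of freedom between replicates was 2.33. Alternatives were DESeq2 1.42.0 (size factors and Wald test), other filters, the mean over transcripts, a fit of just the groups compared, blocking on replicate number, and leaving out each library.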

Additional observations from a re-analysis of the deposited data

Results flagged for a closer look

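Within groups of 4 libraries, a library was singled out where its gap to the nearest of the others, divided by the range of the group, exceeded the 95% critical value of Dixon's test for 4 samples. This held for 17 of 252 combinations of gene and group, while chance gives about 1 in 20. Of the 17, 9 lie in the Nur77 line at 1 h, and 7 of those are replicate 2. That library was the highest of its group for Ctsc (0.829047), Ctsl (0.89) and Ppt1 (0.93), and the lowest for Lgmn (0.904), Lipa (0.85), Scarb2 (0.919) and Rab7b (0.907). In the same group replicate 1 was the lowest for Lamp2 (0.83) and Npc1 (0.86). In the Nur77 line, Ctsz was lowest in replicate 4 at 0 h (0.893) and Atp6v1h was lowest in replicate 1 at 5 h (0.972). In the GFP line, Atp6v1h was highest in replicate 4 at 0 h (0.918) and lowest in replicate 1 at 5 h (0.835). Lamp1 was lowest in replicate 1 at 1 h of the GFP line (0.853), and Rab7b was lowest in the same library (0.851). At 5 h of the GFP line Lamp2 was highest in replicate 2 (0.882) and Tfe3 in replicate 4 (0.832).

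The 5 h response to LPS differed between the lines for Tfe3 (0.367 on the log2 scale, Nur77 minus GFP line), Atp6v1a (0.285) and Naglu (-0.414), each by the interaction term of the edgeR fit.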

How the results depend on the processing

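Of the settings that kept all libraries, fitting only the groups compared lowered the count of lysosomal genes called at 1 h of LPS in the Nur77 line to 7, against 23, and raised that for the difference of the 5 h responses to 10, against 3. The DESeq2 Wald test called 1 for the difference of the 1 h responses, against 0. The cause was not tested. With 1 library left out, the counts were 31 to 37, 35 to 37 and 33 to 36 for the lines at 0, 1 and 5 h. They were 15 to 24 and 26 to 29 for 1 and 5 h of LPS in the Nur77 line, 3 to 4 and 25 to 33 in the GFP line, and 0 to 5 and 1 to 8 for the differences of the 1 and 5 h responses. Apart from the fit without Nur77 line 1 h replicate 2, the share of all genes called in these alternative fits was not counted. The share of windows with the element was 14.3% for TCACGTGA before the start and 17.1% over the whole window, against 34.3% for CACGTG. Among the genes given singly, no called direction was reversed. Lipa between the lines at 1 h, not called at -0.02, was called as higher (0.16) without Nur77 line 1 h replicate 2. Replicate numbers are shared across groups. After each gene's group mean of log2 CPM was taken off, same-numbered libraries of the groups compared correlated at -0.268 to 0.173. For the lines at 0 h the values were 0.131, 0.173, -0.011 and 0.146 for replicates 1, 2, 3 and 4. The numbers were not taken as pairs. With a replicate block the counts were 33, 36 and 34 for the lines, 21 and 28 for LPS in the Nur77 line, 3 and 28 in the GFP line, and 0 and 2 for the differences. Depth limits Ctsh, which lay under 1.5 CPM.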
